A study of Homo sapiens with 6 samples.

Results

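The genes described here are long intergenic noncoding RNAs that carry a LINC symbol, measured by RNA-seq in T24 cells with and without overexpression of RNF112. They were chosen by 2 criteria, a symbol made of LINC and digits alone and a count summed over the 6 samples of 60 or more. The table held 23152 genes, 874 of them with such a symbol, and 215 of these (24.6%) reached the threshold, while the other 659 had 1 to 59 counts. The genes just inside were LINC01393 with 60 counts in all and LINC00853 and LINC00942 with 61 each. Just outside, LINC01431, LINC02832 and LINC01144 had 59 counts each. LINC00520, 1 of the 215, was singled out because of its large change in these samples, and its values are therefore given as a description without a test.

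T24 cells are a long-used line from a human bladder carcinoma. The 3 control samples are labelled vector and the 3 others oeRNF112, for overexpression of RNF112, an E3 ubiquitin ligase that the study examined as a regulator of c-Myc in bladder cancer. All 6 samples were of the same line in RPMI medium with fetal bovine serum, without an untransfected group. The labels' treatment text speaks of an siRNA transfection with Lipofectamine 3000 for all samples, whereas the group labels name vector and overexpression, and the study's plasmid work used a Flag-tagged RNF112 construct. Nothing in the labels says whether the samples of a group were separate cultures, so the p-values below measure the spread between these samples, which may be technical. RNF112 had 27, 19 and 24 counts in vector and 29753, 36963 and 31712 in oeRNF112, a log2 fold change of 10.37 ± 0.177 (SE), so the target gene matched the labels, although reads of the introduced construct may be among these counts.

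Long intergenic noncoding RNAs are transcripts of RNA polymerase II that are mostly spliced and polyadenylated like messenger RNAs but carry no recognised reading frame and lie between protein-coding genes. Some act on the chromatin of their own locus, others bind proteins or microRNAs elsewhere in the cell, and for most no function is known. They are usually less abundant than messenger RNAs and more restricted to particular cell types, and several are studied in bladder cancer as markers.

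The total count of a sample was 41259569, 40482655 and 40326143 in vector and 40029547, 40541536 and 40375330 in oeRNF112. A gene listed at 0 could still have up to 3 counts at these depths, or 0.0727 to 0.0749 CPM (counts scaled to the library total) by sample, a limit that covers counting error only. Counts were tested with edgeR's quasi-likelihood test over all genes that passed its filter on low counts, and a gene is called at an adjusted p under 0.05 (Benjamini-Hochberg). Fold changes are oeRNF112 over vector after TMM normalization, which scales each sample to the bulk of its genes. The samples of a group were not equally alike. Without vector replicate 2 the number of genes called rose from 2620 to 3387, without vector replicate 1 it was 1061, without oeRNF112 replicate 1 it was 1263 and without oeRNF112 replicate 3 it was 1446.

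The cell line label was checked against marker genes. KRT18, a keratin of simple epithelia, had a mean RPKM of 651 and VIM, an intermediate filament of mesenchymal cells, 1888, while CDH1, TP63, KRT14, KRT20 and UPK3A had at most 2 counts in any sample. The epithelial and urothelial markers with a row summed to a CPM of 3860, 3583 and 4446 in vector and 3192, 3376 and 2927 in oeRNF112, and the 4 mesenchymal ones to 5831, 6073 and 5685 against 5545, 5343 and 4906, so both sums were lower in all oeRNF112 samples. KRT7, KRT18, FOXA1 and CDH2 were called lower, with log2 fold changes of -0.48, -0.51, -1.08 and -0.44 (adjusted p = 0.0226, 0.0130, 0.00132 and 0.0252, edgeR), and EPCAM higher, with 0.84 (adjusted p = 0.0208). Of 8 leukocyte markers, the summed CPM was 34.4, 31.8 and 32.9 in vector and 63.7, 70.7 and 57.9 in oeRNF112. The most abundant of them was CD68, a lysosomal protein, with a mean RPKM of 23.4, whereas TYROBP had at most 2 counts and CD3E at most 4, and LYZ had 97 counts in oeRNF112 replicate 1 and at most 8 elsewhere. The 6 fibroblast markers summed to a CPM of 6.74, 8.84 and 9.37 in vector and 11.1, 11.5 and 10.7 in oeRNF112, led by COL1A1, with DCN at no more than 1 count. COL1A1 was not called (adjusted p = 0.210, edgeR). PDGFRA was called higher, with 1, 3 and 8 counts in vector and 19, 29 and 19 in oeRNF112. Its fitted log2 fold change was 2.36 (adjusted p = 0.0194, edgeR), but it passed the filter only through oeRNF112. The 4 endothelial markers stayed between 0.121 and 0.594 CPM in sum. The part of these marker genes in the results on LINC genes was not tested, and in bulk RNA fewer cells of a kind and less RNA per cell cannot be told apart.

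Most LINC genes in T24 cells were low. The median over the 215 genes was a mean RPKM (reads scaled to gene length and library total) of 0.723, and their mean RPKM ran from 0.0424 to 34.8, with 82 genes at 1 or more and 19 at 5 or more. The median over all genes tested was 5.37. In counts, 147 of the 215 had a mean under 100. The LINC genes together took 728.5, 789.7 and 749.8 CPM of the library totals in vector and 843.1, 788.2 and 829.6 in oeRNF112. The groups overlapped, since vector replicate 2 lay above oeRNF112 replicate 2, and after TMM normalization the sums were 759.9, 799.4 and 783.6 against 814.3, 777.4 and 791 CPM. LINC00674, LINC01116, LINC00958, LINC01000 and LINC00205 held 20.7% of these counts, and without them the sum was 575.7, 619.2 and 594.6 CPM in vector and 673.9, 634.9 and 653.2 in oeRNF112. After TMM normalization these sums overlapped, at 600.5, 626.8 and 621.4 against 650.8, 626.2 and 622.9 CPM. Almost every gene was seen in every sample, as the only listed 0 was LINC01315 in vector replicate 2.

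Several of the most abundant LINC RNAs per length are on a list of those studied in carcinomas. LINC01116 (chr2:176611437-176637609) had an RPKM of 35.5, 34.3 and 41.1 in vector and 32.5, 36.2 and 29.3 in oeRNF112. Its groups overlapped, and its log2 fold change was -0.27 ± 0.120 (SE, adjusted p = 0.145, edgeR). LINC00958, also known as a bladder cancer associated transcript (chr11:12979534-12989548), had 1295, 1233 and 1193 counts against 1287, 1438 and 1440, a log2 fold change of 0.08 (adjusted p = 0.564, edgeR). LINC02381 had 718, 678 and 846 counts in vector and 1056, 1041 and 924 in oeRNF112. These counts do not overlap, but the TMM-normalized values do, and the log2 fold change of 0.35 (SE 0.122) did not pass the threshold in edgeR's test (adjusted p = 0.0739). It passed with library totals (adjusted p = 0.0279), without vector replicate 3 (adjusted p = 0.0303) and with limma on RPKM values (adjusted p = 0.0247 and 0.0211). RPKM values are scaled by library totals too, so the limma fits are not separate from that setting. With the other alternatives the adjusted p of LINC02381 was up to 0.231. LINC00467 at 13.0, 11.7 and 13.3 against 14.9, 13.8 and 11.8 RPKM and LINC00857 at 9.71, 9.26 and 10.3 against 10.1, 10.5 and 10.2 RPKM had log2 fold changes of -0.01 and -0.02, whose sign turns under several alternatives (0.09 and 0.07 when scaled by library totals). LINC00941 stood at 7.99, 8.30 and 7.08 against 7.91, 7.19 and 7.07 RPKM, with a log2 fold change of -0.17 (adjusted p = 0.304, edgeR). Of the 10 most abundant, LINC01139 and LINC01322 were called, and both are described below.

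**Figure D1:**
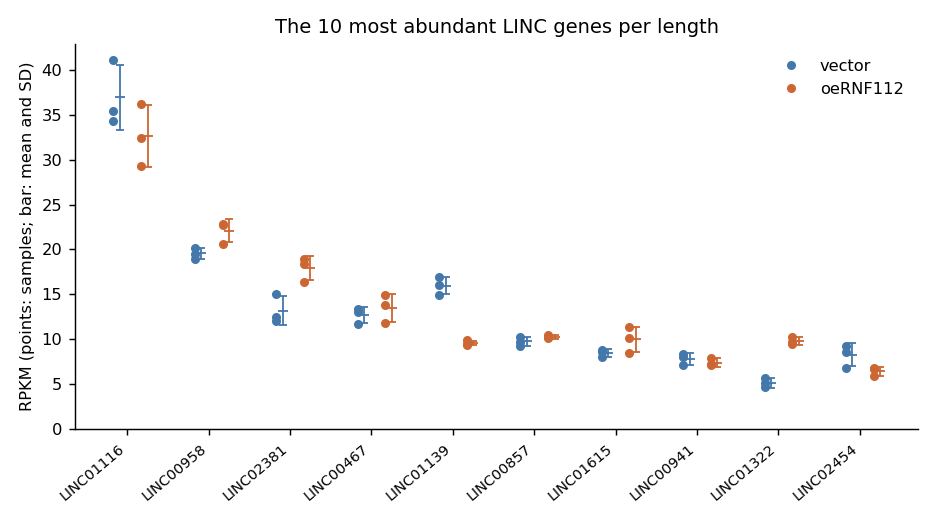
RPKM (vertical axis, reads scaled to gene length and library total, linear from 0) of the 10 LINC genes with the highest mean, with a point per sample and a bar for the mean and SD of 3 samples, vector in blue and oeRNF112 in orange. LINC01116 is highest with a mean of 34.8, LINC01139 is lower in all 3 oeRNF112 samples and LINC01322 higher in all 3.

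Between vector and oeRNF112, 211 of the 215 LINC genes could be tested, and 21 (9.95%) were called, 12 higher and 9 lower in oeRNF112. The 12 include LINC00520, chosen for its change, without which 11 were higher, and 4 further genes near silent in vector. These 5 and 3 of the falls, LINC00324, LINC01910 and LINC01633, had fewer than 10 counts in some sample of their lower group. They passed the filter only through the group where they were high. The 5 had under 10 counts in every vector sample and so had to differ. For the 3 falls the filter alone did not require a difference. With at least 10 counts asked of every sample, 156 LINC genes were tested and 7 were called higher and 6 lower (8.33%), beside 18% of all genes. Of all 14467 genes tested, 2620 (18.1%) were called, 1442 higher (9.97%) and 1178 lower (8.14%), against 5.69% and 4.27% of the LINC genes. When library totals replaced the TMM factors, 2020 genes were called higher and 659 lower, and of the LINC genes 19 and 9. Whether these shares differ was not tested. Without vector replicate 1, 7.44% of the LINC genes and 7.18% of all were called, and with a replicate block 8.53% and 6.06%. Like the share of 9.95%, these LINC shares include genes that passed the filter through a single group. The order of the shares can therefore not be read from them. Normalized values were separated between the groups for 71 LINC genes (33.7%), 41 higher and 30 lower, beside 36.8% of all genes. All 21 called genes were among the 71, and 50 others were separated but not called. The median log2 fold change of the LINC genes was 0.05 (quartiles -0.33 and 0.40), beside 0.00 for all genes (quartiles -0.20 and 0.24), and 114 were fitted higher and 97 lower. The 4 genes that failed the filter on low counts were LINC00336, LINC00939, LINC01176 and LINC02328, with 4 to 27 counts in a sample.

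**Figure D2:**
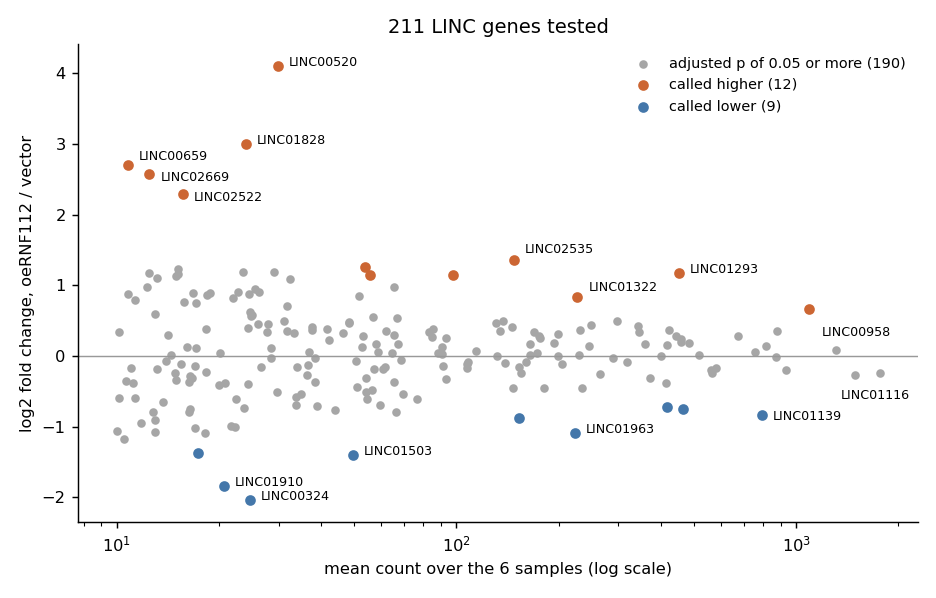
Log2 fold change of oeRNF112 over vector (vertical axis) against the mean count over the 6 samples (horizontal, log scale) for the 211 LINC genes tested, with 12 called higher in orange, 9 called lower in blue and 190 not called in grey. LINC00520 stands highest at 4.10, and the grey points spread more widely towards low counts.

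Counts of LINC genes were mostly low, so the share called was also read within ranges of count. LINC genes had a median mean count of 49.7, whereas the median over all genes tested was 993, and the median standard error of their log2 fold change was 0.29 against 0.13. Among genes with a mean under 30 counts, 8 of 80 LINC genes (10%) and 12.1% of 1526 genes were called, and these 8 are the called LINC genes that passed the filter through a single group. From 30 to under 100 counts it was 4 of 63 (6.35%) beside 18.3% of 1376 genes. From 100 to under 300 counts it was 4 of 37 (10.8%) beside 22.7% of 1396, and at 300 or more it was 5 of 31 (16.1%) beside 18.3% of 10169. The differences within ranges rest on few genes and were not tested. Within each range the median standard errors were alike, for example 0.42 for LINC genes and 0.44 for all genes under 30 counts. Of the 190 LINC genes not called, 131 had a log2 fold change within 0.5 of 0, and the largest size among them was 1.23, of LINC01461 with 2, 8 and 16 counts against 26, 23 and 16.

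**Figure D3:**
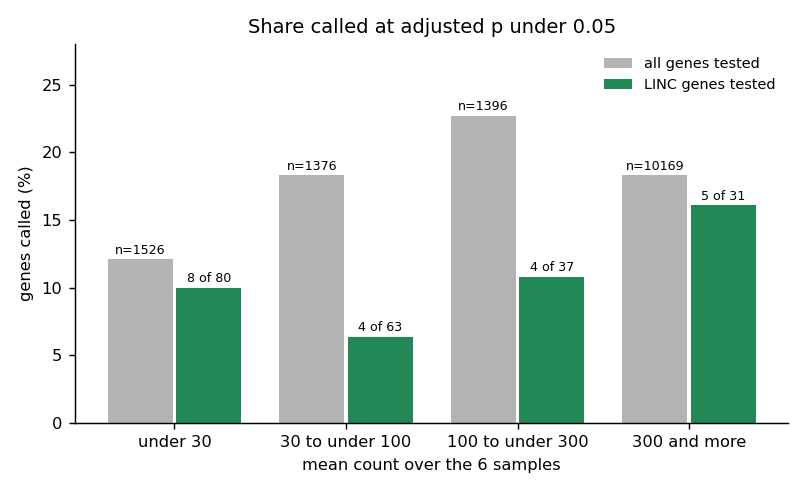
Percent of genes called at an adjusted p under 0.05 (vertical axis, from 0) in 4 ranges of mean count, for all genes tested in grey and LINC genes in green, with the number of genes above each bar. The green bars lie between 6.35% and 16.1% and the grey bars between 12.1% and 22.7%.

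LINC00520 had the highest fold change of all LINC genes. It lies at chr14:55781135-55796674 (GRCh38, RefSeq), overlaps no other RefSeq gene, and is known from endothelial cells and from several carcinomas. Its counts were 7, 1 and 1 in vector and 43, 56 and 71 in oeRNF112, so 2 of the 3 vector samples held a single count and all 3 oeRNF112 samples lay far above the highest vector sample. In RPKM it went from 0.0353 ± 0.0404 to 0.679 ± 0.166 (SD, n = 3), and by its mean RPKM over the 6 samples it had rank 153 of the 215. The fitted log2 fold change was 4.10, and 5.59 without vector replicate 1, which held 7 of the 9 vector counts. From the summed 9 and 170 counts the ratio of CPM was 17.9, with an exact 95% interval of 9.19 to 39.7 that covers counting error only. Its nearest protein-coding genes with counts did not pass the test. KTN1, the kinectin gene 96.6 kb away, had a log2 fold change of -0.22 (adjusted p = 0.165, edgeR), and PELI2, an E3 ligase of Toll-like receptor signalling 321.7 kb away, one of 0.34 (adjusted p = 0.125, edgeR).

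The other 4 of the 5 largest rises started, like LINC00520, from under 20 counts summed over the vector samples. With under 10 counts in every vector sample, these genes passed the filter only through the oeRNF112 samples and so had to differ. Their values are given as a description without a test. LINC01828 (chr2:67086446-67289244) had 7, 1 and 7 counts in vector and 34, 50 and 45 in oeRNF112, a fitted log2 fold change of 2.99. LINC00659 (chr20:62774121-62776856), studied in colorectal cancer, had 5, 2 and 1 counts against 20, 14 and 23, and its fitted log2 fold change was 2.70, or 3.49 without vector replicate 1. LINC02669 (chr10:3433512-3502838) had 1, 1 and 8 counts in vector and 23, 14 and 28 in oeRNF112, with a fitted log2 fold change of 2.57. The groups do not overlap in any of these, but vector replicate 3 of LINC02669 lay nearest to the other group, and without it the fitted log2 fold change was 4.21. LINC02522 (chr6:10465912-10481966), between TFAP2A and GCNT2, had 3, 8 and 4 counts against 24, 28 and 27, a fitted log2 fold change of 2.29.

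The other called rises were of LINC RNAs already present in the vector cells, and they were better measured. Their sizes are not compared with those above, because the member threshold and the filter required a large rise of the near silent genes. LINC02535 (chr6:85387219-85404802) went from 93, 60 and 86 counts to 191, 245 and 209, a log2 fold change of 1.35 ± 0.204 (SE, adjusted p = 0.00235, edgeR). LINC02709 (chr11:9754770-9759533) went from 40, 25 and 27 to 91, 68 and 73, with a log2 fold change of 1.25 (adjusted p = 0.0123). It overlaps the counted antisense gene SBF2-AS1, whose own log2 fold change was 0.28 (adjusted p = 0.119), and reads of the pair may not be separable, as the strand setting of the counting is not given in the sources used here. Of the other called LINC genes with coordinates of their own, none overlaps a counted gene of another RefSeq locus. LINC01293 had 229, 340 and 232 counts against 677, 544 and 694, and LINC01291 had 29, 47 and 24 against 83, 69 and 82. Their log2 fold changes were 1.18 (adjusted p = 0.00169) and 1.15 (adjusted p = 0.0207) in edgeR's test. RefSeq lists both symbols for a single gene at chr2:74908961-74943494, beside HK2, so these 2 calls belong to 1 locus.

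The remaining rises were those of LINC02777, LINC01322 and LINC01000. LINC02777 (chr1:58882878-58904138), 98.8 kb from the AP-1 gene JUN, had 43, 48 and 85 counts against 120, 156 and 135, a log2 fold change of 1.14 ± 0.272 (SE, adjusted p = 0.0189, edgeR). Vector replicate 3 was the highest of its group but stayed under every oeRNF112 sample. LINC01322 (chr3:165206948-165539437) was the most abundant per length of the rising genes, with an RPKM of 5.12, 5.68 and 4.61 against 9.42, 9.70 and 10.2, and its log2 fold change was 0.84 ± 0.135 (SE, adjusted p = 0.00314). LINC01000, named here after its values were seen, had 725, 994 and 733 counts against 1425, 1044 and 1623. Its closest samples, 994 and 1044 counts, almost met, and its log2 fold change was 0.66 ± 0.166 (SE, adjusted p = 0.0236). LINC01000 and LINC01291 each lost the call in 4 of the 6 fits that left out a sample, without vector replicate 1 or 3 or oeRNF112 replicate 1 or 3, with adjusted p up to 0.110 and 0.0863. LINC02777 lost it without vector replicate 1 (adjusted p = 0.0784) and LINC02709 without oeRNF112 replicate 1 (adjusted p = 0.0598), all by edgeR.

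**Figure D4:**
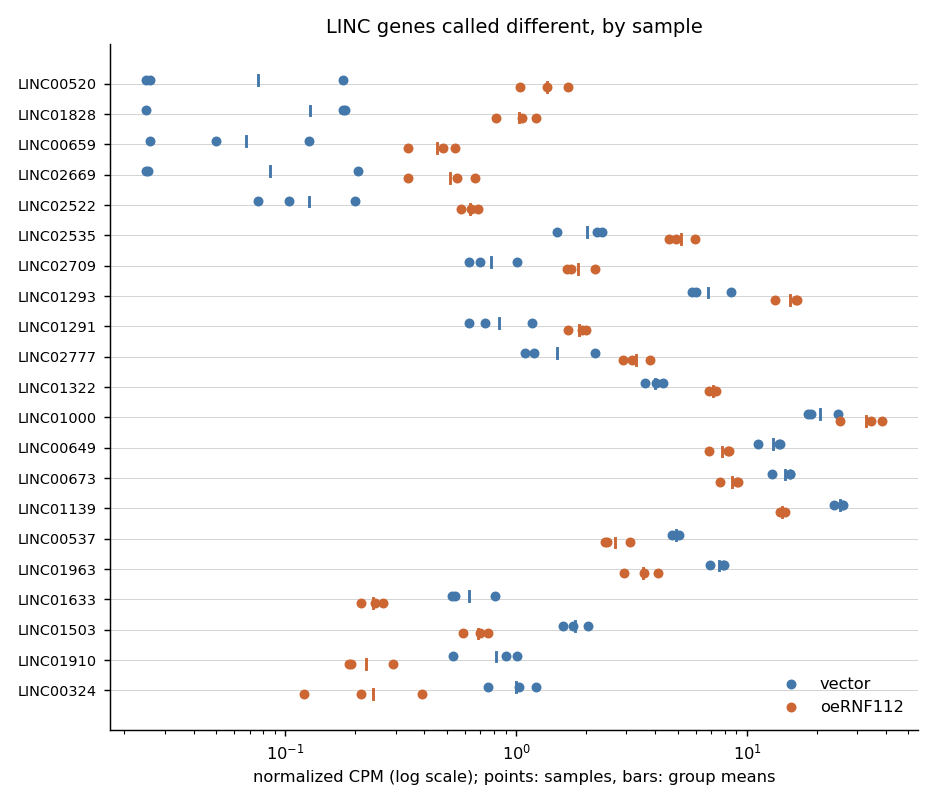
Normalized CPM (horizontal axis, log scale, TMM) of the 21 called LINC genes in each sample, ordered by fold change, with a point per sample and a short bar for each group mean, vector in blue and oeRNF112 in orange. The groups do not overlap in any row, and the 5 upper rows are those with under 20 counts summed over the vector samples.

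Promoter sequences were read around the annotated starts of some of these genes, and the starts used in T24 cells were not measured. RefSeq starts were at hand for 8 of the 21 called genes, LINC00520 not among them. The windows run from 250 bases before to 50 bases after the start (GRCh38.p14), on the strand of the gene. The 3 below belong to LINC02535 (chr6:85404753-85405052, minus strand), LINC02709 (chr11:9759484-9759783, minus strand) and LINC00659 (chr20:62776807-62777106, minus strand), rising genes, and the last to LINC00673 (chr17:72592755-72593054, minus strand), a falling gene, and they are shown because they are the 4 called genes with an AP-1 or GC box match. Capitals mark matches, on either strand, to the AP-1 site TGANTCA, the GC box GGGCGG, the TATA box TATAAA or the E-box CACGTG that Myc proteins bind.
LINC02535: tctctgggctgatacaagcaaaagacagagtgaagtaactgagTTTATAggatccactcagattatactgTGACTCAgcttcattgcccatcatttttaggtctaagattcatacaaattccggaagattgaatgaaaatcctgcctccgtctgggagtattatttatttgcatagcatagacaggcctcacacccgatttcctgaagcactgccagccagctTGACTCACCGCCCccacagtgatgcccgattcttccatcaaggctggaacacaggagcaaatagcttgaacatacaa
LINC02709: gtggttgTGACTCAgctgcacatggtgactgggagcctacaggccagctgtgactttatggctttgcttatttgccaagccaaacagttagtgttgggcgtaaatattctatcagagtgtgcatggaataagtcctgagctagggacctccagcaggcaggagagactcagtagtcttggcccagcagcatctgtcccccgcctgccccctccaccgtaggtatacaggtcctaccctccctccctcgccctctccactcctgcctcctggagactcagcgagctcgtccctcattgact
LINC00659: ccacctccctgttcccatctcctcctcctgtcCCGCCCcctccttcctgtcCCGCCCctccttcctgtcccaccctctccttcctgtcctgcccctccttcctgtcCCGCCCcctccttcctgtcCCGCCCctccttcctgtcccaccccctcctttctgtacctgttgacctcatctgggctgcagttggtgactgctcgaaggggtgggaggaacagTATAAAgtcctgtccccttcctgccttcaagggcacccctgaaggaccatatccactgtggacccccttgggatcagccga
LINC00673: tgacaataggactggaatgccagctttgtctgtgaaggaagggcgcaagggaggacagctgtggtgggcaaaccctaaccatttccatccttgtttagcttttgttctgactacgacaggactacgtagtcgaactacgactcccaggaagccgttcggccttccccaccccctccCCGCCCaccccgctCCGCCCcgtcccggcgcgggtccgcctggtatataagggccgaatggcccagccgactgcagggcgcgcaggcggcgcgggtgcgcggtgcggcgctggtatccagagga
LINC02535 holds 2 AP-1 matches, 1 GC box touching the second of them and 1 TATA match on the other strand, LINC02709 holds 1 AP-1 match, LINC00659 4 GC boxes in a C-rich repeat and a TATA match shortly before the start, and LINC00673 2 GC boxes. None of the 8 called genes had the E-box letters in its window, 2 had an AP-1 match, 3 a GC box and 3 a TATA match. Over the 139 LINC genes with an entry, 7.91% held the E-box, beside 7.44% of the 27305 promoters in the table. The AP-1 letters were in 15.8% of the LINC windows and 7.76% of all, the GC box in 44.6% of both, and the TATA box in 12.95% and 11.95%. LINC promoters had a median GC content of 58% beside 58.3%, and 40.3% of them had a CpG ratio (observed over expected CpG) of 0.6 or more, beside 49.0% of all promoters. These matches describe letters in the windows and were not tested against the changes.

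The falls were led by LINC RNAs at low counts, followed by several abundant ones. LINC00324, LINC01910 and LINC01633 passed the filter only through the vector samples, and their values are a description without a test. LINC00324 (chr17:8220630-8224043), studied in lung and gastric cancer, lies 0.8 kb from CTC1, a telomere maintenance gene, and 10.1 kb from AURKB, the mitotic kinase. It had 30, 41 and 47 counts in vector and 5, 16 and 9 in oeRNF112, a fitted log2 fold change of -2.04. AURKB and CTC1 had log2 fold changes of -0.06 and -0.19 and did not pass the test. LINC01910 (chr18:70380140-70384591) had 21, 36 and 39 counts against 8, 12 and 8, a fitted log2 fold change of -1.84. LINC01503 (chr9:129336923-129347477), known from squamous carcinomas as a target of TP63, went from 70, 64 and 79 counts to 29, 31 and 25, a log2 fold change of -1.40 ± 0.247 (SE, adjusted p = 0.00474, edgeR), in cells with at most 2 counts of TP63. LINC01633 (chr1:185001527-185008678) had 32, 21 and 21 counts against 11, 10 and 9, with a fitted log2 fold change of -1.37.

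The 5 falls at higher counts held in every fit with a sample left out. LINC01963 (chr2:216216889-216220192) had 310, 317 and 268 counts in vector and 171, 121 and 152 in oeRNF112, a log2 fold change of -1.09 ± 0.158 (SE, adjusted p = 0.0019, edgeR). LINC01139 (chr1:238480384-238486017), known as LINK-A and studied for its part in HIF1A signalling, was the most abundant per length of the falling genes. Its RPKM was 14.9, 16.9 and 16.1 in vector and 9.86, 9.34 and 9.50 in oeRNF112, with the smallest standard error of the 21 called genes and a log2 fold change of -0.83 ± 0.0947 (SE, adjusted p = 0.000604). LINC00673 (chr17:72403322-72592804), which lies in the gene-poor interval downstream of SOX9 and is studied in lung and pancreatic cancer, had 609, 513 and 594 counts against 380, 373 and 322, a log2 fold change of -0.75 ± 0.128 (SE, adjusted p = 0.00399). LINC00649 (chr21:33931122-33971186) had 542, 556 and 431 counts against 344, 343 and 289, a log2 fold change of -0.72 (adjusted p = 0.00662). LINC00537 (chr9:63812941-63819029) had 187, 197 and 196 against 103, 100 and 132, with a log2 fold change of -0.87 (adjusted p = 0.00609).

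Repeats can blur such counts. For 15 of the 21 called genes a GENCODE transcript was at hand, and 12 of these had no stretch of at least 100 bases with 95% identity to another gene's transcript. LINC01503 matched over 11.7% of its length, LINC00649 over 4.96% and LINC01139 over 2.33%. The other 6 genes, LINC00537, LINC00673, LINC01000, LINC02669, LINC02709 and LINC02777, could not be checked in this way.

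A list of 43 LINC RNAs studied in carcinomas was read against the same fit. Of these, 30 had a row and 23 reached the threshold and were tested. LINC00673 was called lower, as was LINC00324, which passed the filter only through vector, and 20 others were not called, with a median log2 fold change of -0.01 over the 23. LINC00520, chosen for its change, is the remaining gene and part of the 13.0% called, beside 18.1% of all genes.

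Genes next to LINC genes were compared in the same fit, taking the nearest protein-coding gene with a row on each side. The called LINC genes had 35 tested neighbours, of which 9 (25.7%) were called, 7 in the direction of the LINC gene and 2 in the opposite one. Of these, 16 neighbours and 3 of the 9 called, NTSR1, KLF6 and CBLN2, stood beside LINC genes that passed the filter through a single group. Without them 6 of 19 were called, 5 in the same direction and 1 in the opposite one. LINC genes that were not called had 268 distinct tested neighbours, of which 50 (18.7%) were called, beside 18.1% of all genes, and 3 of these 50 also neighbour a called LINC gene. Some are the nearest gene of several LINC genes, and in the 56 pairs with a called neighbour 35 had equal and 21 opposite signs. Pairs higher together were NTSR1, the neurotensin receptor, 11.4 kb from LINC00659, HK2, a hexokinase of glycolysis, 15.6 kb from LINC01291, NT5E, the ectoenzyme CD73, 45.3 kb from LINC02535, and KLF6, a zinc finger transcription factor, 273.2 kb from LINC02669. NTSR1 had 147, 173 and 136 counts against 319, 288 and 268, a log2 fold change of 0.86 (adjusted p = 0.00421, edgeR), whereas MRGBP on the other side had one of 0.06. HK2 had 2407, 2761 and 2022 counts against 3754, 3708 and 3756, a log2 fold change of 0.56 (adjusted p = 0.00673), and POLE4 on the other side had -0.53 (adjusted p = 0.0679). The log2 fold changes of NT5E and KLF6 were 0.50 (adjusted p = 0.00401) and 0.71 (adjusted p = 0.000931).

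Pairs lower together were IER5L with LINC01503 at 158.7 kb, SOX9 with LINC00673 at 276.9 kb and XRCC5 with LINC01963 at 10.6 kb. IER5L had 1204, 1158 and 1402 counts in vector and 683, 680 and 607 in oeRNF112, a log2 fold change of -1.02 (adjusted p = 0.000629, edgeR). SOX9, a transcription factor of epithelial progenitors, had 6147, 6815 and 5952 against 4604, 3938 and 3911, a log2 fold change of -0.68 (adjusted p = 0.00171). XRCC5, the Ku80 subunit of double-strand break repair, had a log2 fold change of -0.39 (adjusted p = 0.0114), and MARCHF4, a membrane-bound E3 ligase on the other side of LINC01963, rose by 0.56 (adjusted p = 0.00446). CBLN2, a synaptic organiser 2152 kb from LINC01910, had 7, 8 and 4 counts against 43, 44 and 17, a fitted log2 fold change of 2.36, and CBLN2 was near silent in vector. The opposite signs at LINC01963 were thus found on the 2 sides of a single gene.

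**Figure D5:**
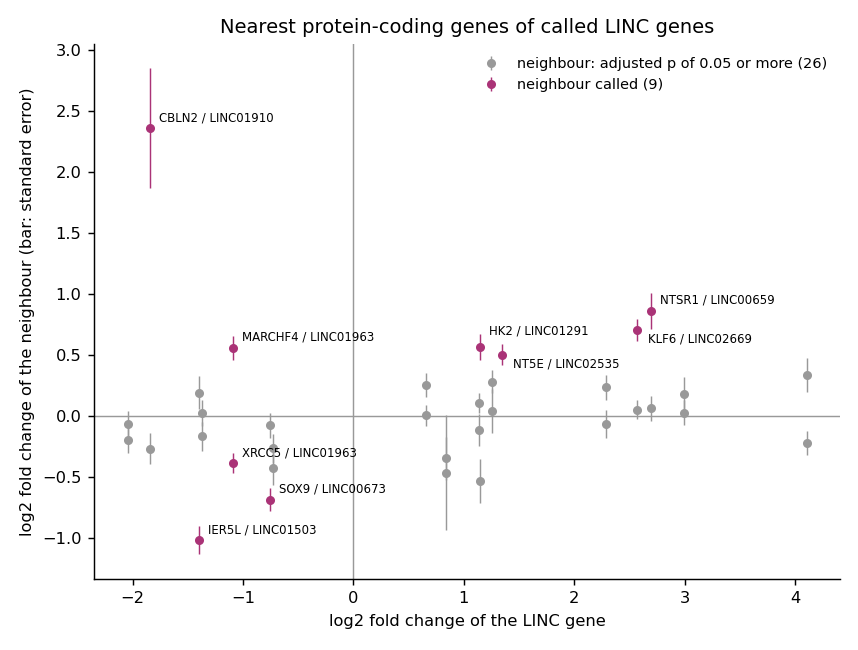
Log2 fold change of the nearest protein-coding genes (vertical axis, bars for the standard error) against that of the called LINC gene beside them (horizontal axis), with the 9 neighbours called in purple and 26 not called in grey. Of the 9, 7 lie in the quadrants of equal sign, and CBLN2 and MARCHF4 lie above 0 beside a falling LINC gene.

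Other groups of genes in the table were set by their symbols alone. Antisense genes (symbols in -AS) had 419 tested, 18 called higher and 31 lower (11.7%), around a median of -0.03 on the log2 scale. Divergent transcripts (-DT) had 170 tested, 6 higher and 2 lower (4.71%). Host genes of small RNAs (HG) had 53 tested, 7 higher and 0 lower (13.2%), around a median of 0.12. Genes with LOC symbols had 657 tested, 54 higher and 23 lower (11.7%). LOC symbols are not limited to noncoding RNAs, as LOC107984449 is protein-coding in RefSeq. Protein-coding genes had 12656 tested with 19.1% called, at a median mean count of 1263, and of all genes 18.1% were called. The -AS, -DT, HG and LOC groups had median mean counts of 25.7 to 192, and the differences in share between groups were not tested.

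Among well known noncoding RNAs outside the LINC nomenclature, 55 were tested and 7 were called in each direction (25.5%, beside 18.1% of all genes). UCA1, first described in urothelial carcinoma, had 511, 517 and 564 counts in vector and 3452, 3149 and 3761 in oeRNF112, a log2 fold change of 2.62 ± 0.103 (SE, adjusted p = 1.49e-06, edgeR). LUCAT1, a stress-responsive RNA, had 32, 61 and 43 counts against 229, 229 and 237, a log2 fold change of 2.27, and LINC-PINT, a target of p53, had 287, 364 and 358 against 775, 824 and 966, a log2 fold change of 1.26. DANCR, which holds back differentiation, went from 832, 713 and 803 counts to 415, 453 and 331, a log2 fold change of -1.05 (adjusted p = 0.00135). H19 belongs to a separate list of 5 imprinted RNAs, of which 2 were tested and H19 alone was called. It went from 153, 179 and 200 counts to 89, 86 and 54, a log2 fold change of -1.29 (adjusted p = 0.00446, edgeR). Of 26 snoRNA host genes tested, SNHG1, SNHG12 and SNHG17 (11.5%) rose by 0.59, 0.57 and 0.54 on the log2 scale. Of 21 microRNA host genes tested, MIR3142HG and MIR222HG (9.52%) rose. No gene of either list was called lower, and of all genes 9.97% were called higher and 8.14% lower. The differences in share were not tested. The nuclear RNAs MALAT1 and NEAT1 had log2 fold changes of 0.62 (adjusted p = 0.0958) and 0.60 (adjusted p = 0.0625), with the count of oeRNF112 replicate 2 within the range of the vector samples for both.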

How the data were processed

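RNA of 3 vector and 3 oeRNF112 samples of T24 cells was sequenced with a stranded mRNA kit. The submitters' processing notes name Trimmomatic 0.36 and featureCounts of Subread 1.5.1 with GRCh38, and the aligner, annotation and strand setting are not given in the sources used here. The authors deposited raw counts per gene, and RPKM values that equalled count over total and 1 length for 16237 of 16237 genes above 0 in all samples (relative tolerance 0.001). No 2 samples were copies of each other.

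Counts were tested with edgeR 4.0.16 in R 4.3.3 (filterByExpr, TMM factors, quasi-likelihood test, no covariate) over all 14467 genes that passed the filter, with Benjamini-Hochberg adjustment, after tests on simulated data. The standard error is the absolute log2 fold change over the square root of F. The members, gene lists and the rule for named genes were chosen with earlier results of these data known, and LINC00520 was selected on its change. Named genes are RNF112, LINC00520, the 10 largest rises and falls called, the 5 most abundant members per length, called or abundant members of the carcinoma list, the genes at the threshold, up to 5 in each direction of the other lists, and the neighbours of called members. LINC01000, LINC01461, LINC00674, LINC00205, LINC01315, the 4 genes not tested, SBF2-AS1, MALAT1 and NEAT1 are not covered by it and were picked once their values had been seen. Coordinates are those of RefSeq (GRCh38.p14), in which 202 members matched by symbol and 12 by another current symbol.

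Alternatives were DESeq2 1.42.0, RLE size factors, library totals, no filter, 10 counts in every sample, a replicate block, limma 3.58.1 on log2(RPKM + 1) or log2(RPKM + 0.1), other member thresholds, and each sample left out in turn.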

Additional observations from a re-analysis of the deposited data

How the results depend on the processing

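With library totals, 19 LINC genes were called higher and their median log2 fold change was 0.14, while that of all genes moved to 0.10. A minimum of 10 counts in every sample left 7 higher and 6 lower, and leaving out the 5 genes near silent in vector left 7 higher and 9 lower. limma called 22 higher and 10 lower with either pseudocount (15.2%, beside 17.5% and 18% of all genes, of which 1863 and 1919 were higher and 669 and 682 lower). With a pseudocount of 0.1 the LINC median was 0.12 and that of all genes 0.09. Where calls also needed a log2 fold change of 1 or more in size, 614 genes in all and 10 LINC genes higher and 5 lower were called. DESeq2 called 15 higher and 11 lower (12.3%, beside 22.4% of all genes), keeping all 21. Leaving out each sample in turn gave 1061 to 3387 genes in all, 8 to 15 LINC genes higher, 7 to 10 lower and a median of 0.05 to 0.09 (0.0459 to 0.0936), and 14 of the 21 stayed called in all 6 fits. Of these 14, LINC00520, LINC01828, LINC00659, LINC02522 and LINC00324 passed the filter through a single group, so their calls say nothing about stability. Besides the losses given with the rises, calls were lost by LINC02669 (without vector replicate 1 or oeRNF112 replicate 1 or 3), LINC01633 (without vector replicate 1 or any oeRNF112 replicate) and LINC01910 (without oeRNF112 replicate 1). No called LINC gene changed sign in any fit.

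Signs reversed in LINC00467 and LINC00857, both near 0. LINC00467 had a log2 fold change of 0.087 with library totals, 0.00114 with 10 counts in every sample, 0.077 and 0.082 with limma, and, among -0.0824 to 0.092 with a sample left out, 0.0336, 0.0397 and 0.092 without vector replicate 1, vector replicate 3 and oeRNF112 replicate 3. LINC00857 had 0.0731 with library totals, 0.0672 and 0.0733 with limma and, among -0.0728 to 0.0265 with a sample left out, 0.0265 without vector replicate 3. The cause was not tested.

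Deviations from the group means correlated by -0.109, -0.337 and -0.276 between samples of equal replicate number, which gives no sign of pairing by that number. Deviations sum to 0 within a group, so samples of unequal number must vary together on balance. A source of spread shared by such samples was not modelled and may run partly with the groups. With the replicate block, 876 genes were called, 618 higher and 258 lower. Of the LINC genes 10 were called higher and 8 lower, without LINC01000, LINC01291 and LINC01633. This is 8.53% of the LINC genes tested and 6.06% of all genes. For a log2 fold change of 1 or more in size the shares were 7.11% and 4.24%. Both LINC shares include genes that passed the filter through a single group. The turned order of the shares is therefore no result about LINC genes. Depth limits the genes of few counts, as 147 of the 215 had a mean under 100.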
